A study of Mus musculus with 6 samples.

Results

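Kinesins and cytoplasmic dynein are the motors that walk along microtubules, and vincristine, a vinca alkaloid given in cancer chemotherapy, binds the tubulin from which microtubules are built. The genes of these motors were taken from the count tables by symbol: kinesin heavy chains (Kif and Kifc), kinesin light chains (Klc1 to Klc4), the chains of cytoplasmic dynein 1 and 2 (Dync and Dynl) and dynactin subunits (Dctn1 to Dctn6). Of 38926 gene symbols 67 matched, and 65 of these held at least 10 reads over the 6 libraries. Kif12, with 2 reads, and Kif2b, with 0, did not. By role, the 65 members were 15 kinesins that carry cargo, 4 kinesin light chains, 5 chains of dynein 1, 9 dynein light chains, 6 dynactin subunits, 2 chains of dynein 2, 13 kinesins of cell division, 10 other kinesins and 1 pseudogene, Dynlt1-ps1. The first 5 of these roles, 39 genes, are called axonal transport motors below. The kinesins of cell division are the 7 mitotic motors Kif11, Kif15, Kif20a, Kif22, Kif23, Kif2c and Kif4, together with Kif14, Kif18a, Kif18b, Kif20b, Kif24 and Kifc1.

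The tissue was dorsal root ganglia of lumbar levels 3 to 5 from wild type female C57BL/6 mice aged 8 to 10 weeks, taken on the side of the treated paws. Each of the 6 samples pooled the ganglia of 4 animals, and 3 pools came from mice given vehicle and 3 from mice given vincristine. Per the labels, the vincristine dose was 40 µg in all, injected into the paw (intraplantar). The names of the deposited tables instead give 10 µg and give the vehicle replicates the numbers 1, 2 and 4; dose and replicate numbers here follow the labels. The time after the last dose is not stated in the sources used. The pools are separate biological replicates of whole ganglia, so neurons, glia, vessels and blood cells are measured together, and fewer cells of a type and less RNA per cell cannot be told apart.

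In a sensory neuron the axon is far longer than the cell body, and almost everything at its ends is carried there. Kinesins of the kinesin-1, kinesin-2 and kinesin-3 families move vesicles, mitochondria and cytoskeletal cargo outward along axonal microtubules, and cytoplasmic dynein 1 with its cofactor dynactin carries cargo and injury signals back to the cell body. Mitotic kinesins instead build the spindle, move chromosomes and complete cytokinesis, so their transcripts are found mainly in cells that divide, which sensory neurons do not.

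Reads counted in genes ranged from 12374331 to 26346304 per library, with the lowest number in vincristine replicate 1. That library stood apart: the first principal component, with 59.5% of the variance, placed it at 63.8 and the other 5 libraries between -34.6 and 3.30. The 24 pan-neuronal marker genes were all detected in every library, with a summed level of 14260 to 20261 CPM (reads of a gene scaled to a common library size, with TMM factors) in vehicle and 7699 to 19895 CPM in vincristine, where vincristine replicate 1 was the lowest. Atf3, a transcription factor of axon injury that serves here to check the labels, was at 7.95, 7.56 and 6.05 CPM in the vehicle libraries and 129, 196 and 289 CPM in the vincristine libraries. Vincristine replicate 1 also had the largest share of tallied alignments outside annotated genes, 24.8% against 14.8% to 17.03% in the other 5 libraries. Results that leave it out are given beside the values it moves most.

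Per kilobase of exon, transport motors were the abundant ones and division kinesins the rare ones in vehicle ganglia. The median vehicle level over the 39 axonal transport motors was 37.6 RPKM (CPM per kilobase of exon), and over the 13 division kinesins 1.01 RPKM, with a range of 0.394 to 2.68 RPKM. Klc1, a light chain that ties kinesin-1 to its cargo, had the highest level of the 65 members, 242 ± 22.9 RPKM (SD, n = 3). Dynlt3, a dynein light chain, followed with 162 ± 10.5 RPKM and did not overlap Klc1. Below these, Kif21a was at 131 ± 22.3 RPKM, Kif5a at 126 ± 28.3, the dynein light chain Dynlrb1 at 117 ± 6.62 and Kif1a at 116 ± 21.7 RPKM. Kif5c was at 110 ± 17.4 and Kif5b at 105 ± 5.43 RPKM, and neighbours in this order did not differ beyond their spread. The length used takes in all annotated exons of a gene and can exceed that of its transcript, so the order also depends on it. Dync1h1, the dynein heavy chain that holds the motor domain, was at 81.1 ± 17.2 RPKM. The most abundant division kinesin was Kif11, at 2.68 ± 0.769 RPKM, and Kif22 was at 1.30 ± 0.174 RPKM. Among the transport kinesins and their light chains, Klc3 and Kif17 had the lowest levels, 0.456 and 0.400 RPKM.

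With all libraries in the fit, every division kinesin had a positive log2 fold change after vincristine, and most axonal transport motors had a small negative one. The negative side rested on vincristine replicate 1. Without that library the median log2 fold change was 0.017 for axonal transport motors and 0.55 for division kinesins. Of the 65 members 62 had enough reads to be tested. Dynlrb2, Dynlt1b and Dynlt1c did not, with 2 to 7, 1 to 5 and 5 to 13 reads per library. At an adjusted p under 0.05 over all 16706 genes tested, edgeR's quasi-likelihood test called 1 member higher, Kif22, and 0 lower; over all genes the share called in either direction was 0.359%. DESeq2 called 2 members higher, Kif22 and Kif14, and 0 lower, with 3.41% of all genes called. At an unadjusted edgeR p under 0.05, 12 of 62 members (19.4%) were higher, beside 8.10% of all genes, and 1 of 62 (1.61%) was lower, beside 3.27% of all genes. The vincristine libraries lay wholly above the vehicle libraries for 12 members (19.4%), beside 11.5% of all genes, and wholly below for 5 (8.06%), beside 9.51%. Without vehicle replicate 1 or 2 the 12 higher members at that unadjusted p became 5 and 4. Of the 12, 11 were division kinesins and the other was Kif21b.

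**Figure D1:**
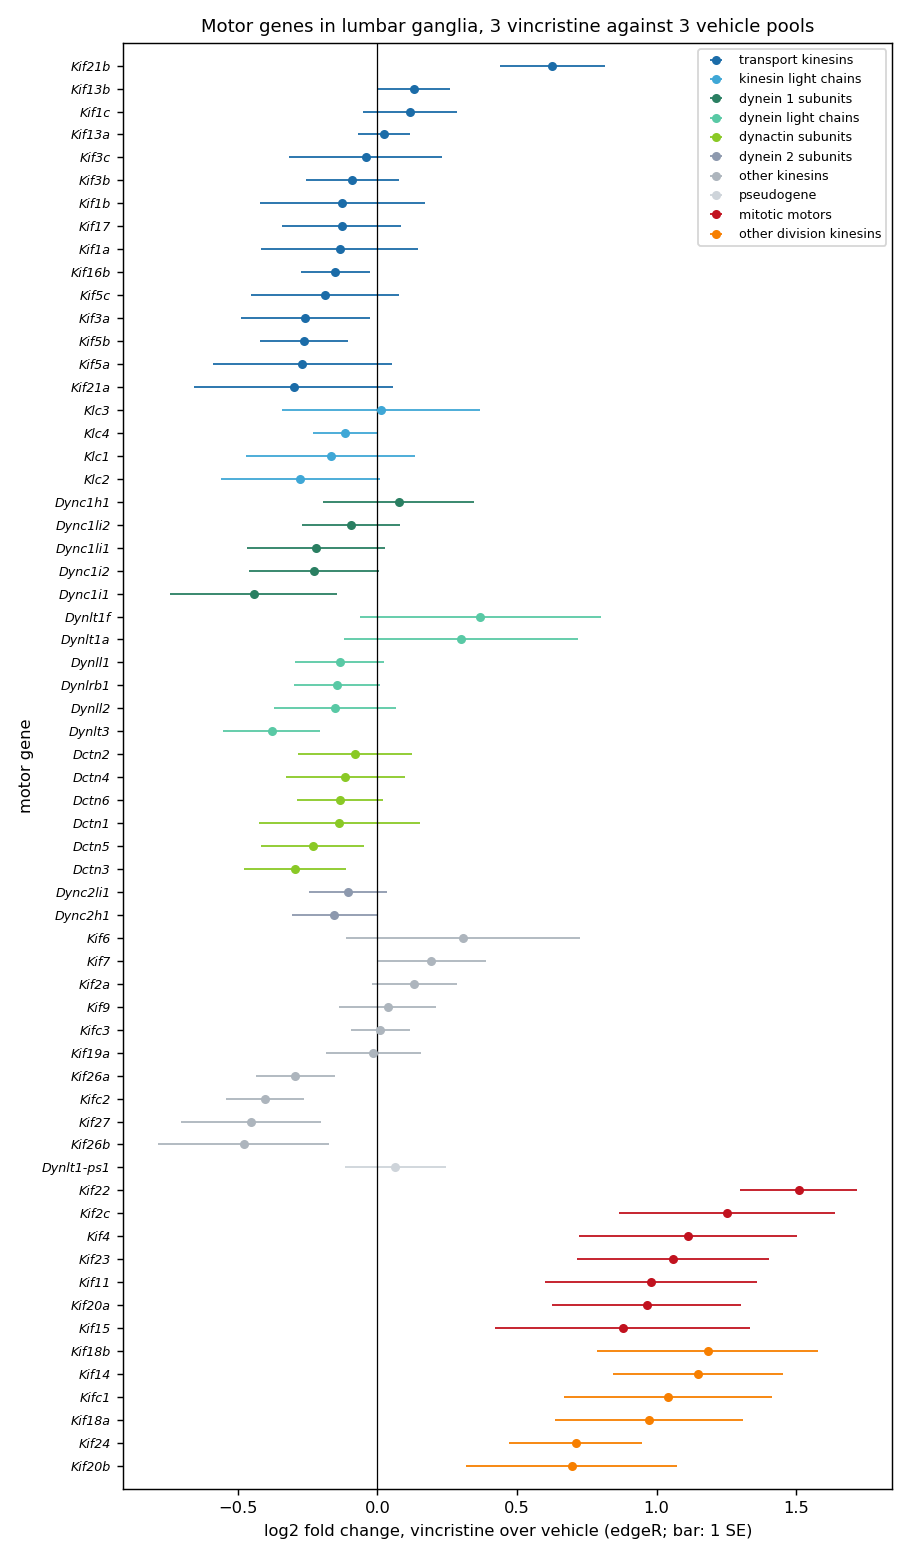
Log2 fold change of vincristine over vehicle for each of the 62 tested motor genes, grouped and coloured by role, with bars of 1 SE from edgeR (3 pools a group). The 13 division kinesins at the bottom lie between 0.70 and 1.51, while the 36 tested axonal transport motors lie between -0.44 and 0.63 with a median of -0.13.

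Kif22 (the kinesin Kid, which binds chromosome arms and pushes them toward the spindle equator) rose after vincristine. It is a protein-coding gene on the minus strand of chromosome 7 (chr7:127027729-127042471, GRCm38). Its level was 6.83, 5.37 and 6.85 CPM in the vehicle libraries and 22.9, 14.1 and 17.4 CPM in the vincristine libraries. All 3 vincristine libraries were above all 3 vehicle libraries by a wide margin, on 103 to 137 reads in vehicle and 270 to 451 in vincristine. The log2 fold change was 1.51 ± 0.21 (SE), with an edgeR adjusted p of 0.0485 and a DESeq2 adjusted p of 5.00e-07. The edgeR call was close to the threshold. It was lost with another scaling of the libraries (adjusted p = 0.0554), without any 1 of the vehicle libraries (0.250 to 0.303) and without vincristine replicate 2 or 3 (0.0806 and 0.136). Without vincristine replicate 1 it held (log2 fold change 1.31 ± 0.16, edgeR adjusted p = 0.00953).

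The other 6 mitotic motors had smaller positive log2 fold changes, 0.88 to 1.25, and none passed the threshold over all genes by edgeR or DESeq2. Kif11, the motor that slides spindle microtubules apart to make the spindle bipolar, was at 20.2, 14.1 and 25.6 CPM in vehicle and 64.1, 27.4 and 27.4 CPM in vincristine (log2 fold change 0.98 ± 0.38, edgeR adjusted p = 0.396). Vincristine replicate 1 was far above the other libraries, and the other 2 vincristine libraries were just above the highest vehicle library. Kif15, which shares spindle functions with Kif11, was at 8.91, 6.10 and 9.65 CPM in vehicle and 27.4, 8.46 and 10.1 CPM in vincristine (0.88 ± 0.46, adjusted p = 0.529). It was the one mitotic motor whose groups overlapped. With vincristine replicate 1 left out, the log2 fold change of Kif15 was 0.18 ± 0.21 and that of Kif11 0.45 ± 0.22 (edgeR adjusted p = 0.799 and 0.449).

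Kif23, part of the centralspindlin complex of the dividing cell's midzone, was at 8.74, 5.58 and 9.70 CPM in vehicle and 25.5, 11.8 and 13.1 CPM in vincristine (log2 fold change 1.06 ± 0.34, edgeR adjusted p = 0.318). Kif20a, which works in cytokinesis, was at 6.61, 4.85 and 6.85 CPM in vehicle and 18.7, 8.30 and 9.06 CPM in vincristine (0.96 ± 0.34, adjusted p = 0.353). Both showed the same order of libraries, with vincristine replicate 1 highest and vehicle replicate 2 lowest. Kif2c, which takes microtubules apart at the centromere, was at 2.63, 1.88 and 3.05 CPM in vehicle and 9.76, 4.12 and 4.43 CPM in vincristine (1.25 ± 0.39, adjusted p = 0.292). Kif4, a chromosome-bound kinesin of the spindle midzone, was at 6.89, 5.26 and 8.10 CPM in vehicle and 24.5, 10.0 and 9.75 CPM in vincristine (1.11 ± 0.39, adjusted p = 0.354). The vincristine libraries of these 2 genes also lay wholly above the vehicle libraries. The log2 fold changes without vincristine replicate 1 were 0.64 for Kif23, 0.51 for Kif20a, 0.76 for Kif2c and 0.55 for Kif4.

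Among the other 6 division kinesins, Kif14, which acts at the midbody, had the smallest p. It was at 6.11, 4.48 and 6.998 CPM in vehicle and 19.1, 10.0 and 10.2 CPM in vincristine, with groups that did not overlap (log2 fold change 1.15 ± 0.30). Its edgeR adjusted p was 0.224 and its DESeq2 adjusted p 0.0231, so the 2 tools differed in calling it. Kif24, a centriolar kinesin, was at 2.63, 3.28 and 3.55 CPM in vehicle and 6.43, 3.97 and 5.20 CPM in vincristine (0.71 ± 0.24, edgeR adjusted p = 0.330). Kif18a, Kif18b and Kifc1 had log2 fold changes of 0.97, 1.18 and 1.04 with groups that did not overlap, and Kif20b one of 0.70 with groups that did. Leaving out vincristine replicate 1 gave 0.78 for Kif14, 0.54 for Kif24, 0.51 for Kif18a, 0.65 for Kif18b, 0.63 for Kifc1 and 0.11 for Kif20b.

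As a group, the 7 mitotic motors had a median log2 fold change of 1.06, the other 6 division kinesins one of 1.01, and all genes tested one of -0.0033. An unadjusted edgeR p under 0.05 in the higher direction was reached by 6 of 7 mitotic motors and 5 of 6 others, together 84.6% beside 8.10% of all genes. All 13 had their highest level in vincristine replicate 1. The median of the mitotic motors, as log2 difference from the vehicle mean, was 1.70, 0.56 and 0.55 in the 3 vincristine libraries, replicate 1 first, and 0.11, -0.33 and 0.25 in the vehicle libraries. Without vincristine replicate 1 the median of the mitotic motors was 0.55 and 9 of 13 division kinesins (69.2%) still had an unadjusted p under 0.05, beside 8.73% of all genes.

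**Figure D2:**
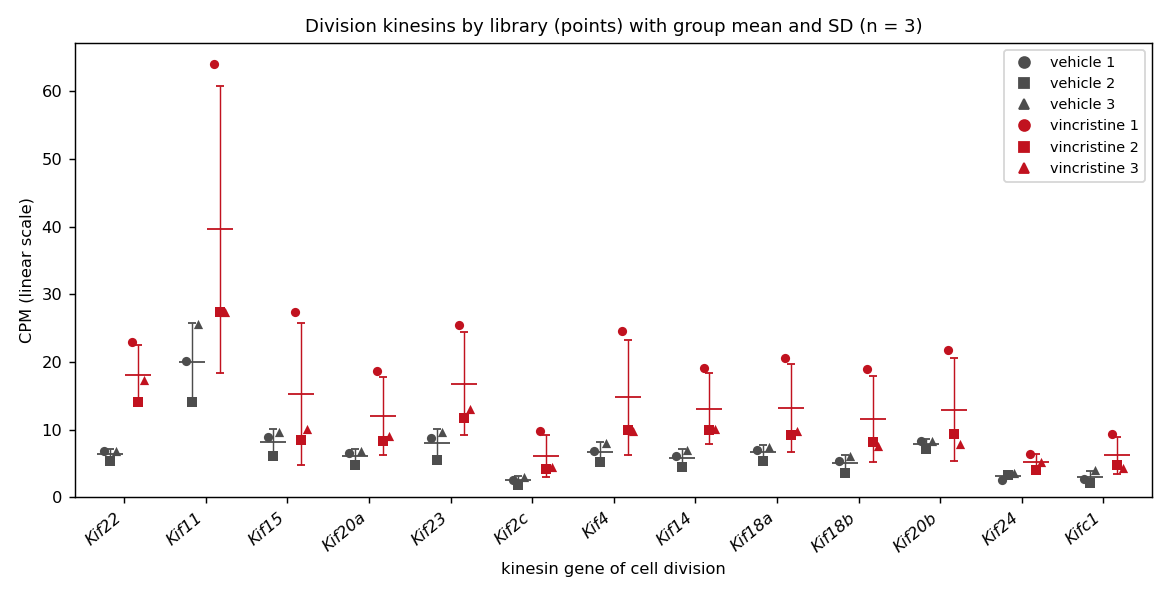
Level in CPM (linear axis from 0) of the 13 kinesins of cell division in each library, with vehicle in grey and vincristine in red, 1 symbol per library, and the group mean with SD (n = 3) as lines. Vincristine replicate 1 (red circle) is the highest library for every gene, and for Kif22 the other 2 vincristine libraries also stand well above vehicle.

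Markers of cell division, neutrophils, red cells and macrophages were higher in the same libraries as the division kinesins, B-lineage markers were lower, and glial markers overlapped between the groups. The list of 30 cell division genes outside the kinesin family had a median log2 fold change of 1.06, with 0 called by edgeR. At an unadjusted edgeR p under 0.05, 19 were higher (63.3%, beside 8.10% of all genes). DESeq2 called 6 higher, beside 487 of all 16706 genes tested. Without vincristine replicate 1 the median was 0.50, and 13 (43.3%) were higher at that unadjusted p, beside 8.73% of all genes. The summed level of the list was 339 to 563 CPM in vehicle and 666 to 1591 CPM in vincristine. Its medians by vincristine library, 1.72, 0.48 and 0.54, were close to those of the mitotic motors. The 16 neutrophil markers had summed levels of 866 to 1499 CPM in vehicle and 2709 to 8220 CPM in vincristine, and the 11 red cell markers 1410 to 1707 and 2677 to 6203 CPM. The 14 macrophage markers had summed levels of 722 to 946 and 1227 to 2372 CPM. For each of these lists vincristine replicate 1 was the highest library. Without it the median log2 fold changes of the neutrophil, red cell and macrophage lists were 1.27, 1.05 and 0.49, in place of 1.89, 1.56 and 0.66. The 12 B-lineage markers had summed levels of 204 to 261 CPM in vehicle and 97.6 to 157 CPM in vincristine. Most of this sum was Ebf1, at 139, 174 and 169 CPM in vehicle and 87.5, 151 and 151 CPM in vincristine, with overlapping groups. Over the 11 B-lineage markers tested the median log2 fold change was -3.13. Of these 11, edgeR called 8 lower and DESeq2 10, beside 11 and 82 of all 16706 genes tested. Satellite glia and Schwann cell markers, with summed levels of 3333 to 3713 and 11889 to 16993 CPM in vehicle, were at 3581 to 3784 and 11015 to 15326 CPM in vincristine. None of these markers was at 0 in any library, and their part in the levels of the division kinesins was not tested.

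**Figure D3:**
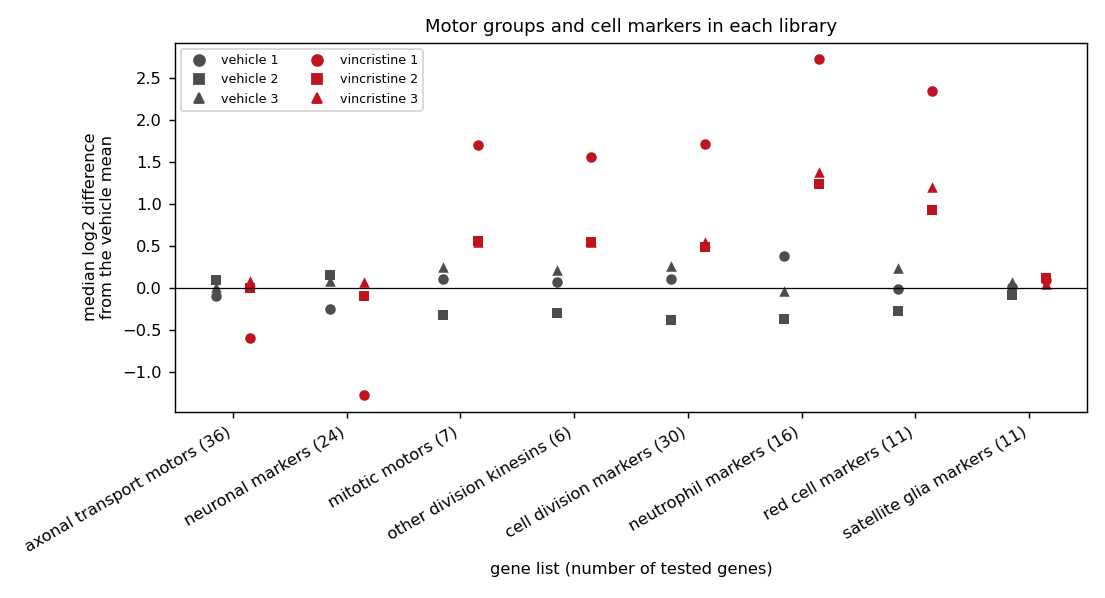
Median over the tested genes of each list of the log2 difference from the vehicle mean, by library (vehicle grey, vincristine red, 1 symbol per library; the number of genes is in brackets). Mitotic motors, other division kinesins and cell division markers have nearly the same pattern over the 6 libraries, and axonal transport motors are low in vincristine replicate 1 (-0.59), as the neuronal markers are (-1.27).

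Since the division kinesins lay in one direction, their promoters were compared. The windows run from 250 bases before to 50 bases after the transcription start (RefSeq, GRCm38.p6) and were found for 48 of the 65 members, among them 12 division kinesins. Searched were the CHR element TTTGAA, a motif of promoters that are active in mitosis, and the CCAAT box, both on either strand and with exact letters, and the 2 motifs can share at most 1 letter at an end. The CHR letters were in 10 of 12 division kinesin windows, in 2 of 33 windows of axonal transport motors (6.06%), in 12.1% of windows of tested genes and in 17.9% of all 32851 windows. Within 30 bases of the start they were in 8 of 12 division kinesin windows, beside 3.14% of all windows. CCAAT letters were in 8 of 12 division kinesin windows, in 36.4% of axonal transport motor windows and in 37.4% of all windows. A match is a description of the letters, not evidence of a bound factor.

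Shown are the stretches before the start of 5 division kinesins and, for contrast, of 2 axonal transport kinesins with neither motif there. Kif1a has 2 windows, and the one not shown holds a CHR element 44 bases before its start, so Kif1a is, with Dctn1, one of the 2 axonal transport motors with CHR letters. Each stretch starts 70 bases before the transcription start and ends just before it, except that those of Kif23 and Kif18b run 8 and 9 bases past it. Capitals mark a CHR element (TTTGAA, or TTCAAA on the other strand) or a CCAAT box (CCAAT, or ATTGG on the other strand), and each is written 5′ to 3′ in the direction of transcription. On GRCm38.p6 they lie at chr7:127042421-127042490 (minus strand) for Kif22, chr19:37376312-37376381 (plus strand) for Kif11, chr9:122951011-122951080 (plus strand) for Kif15, chr9:61946792-61946869 (minus strand) for Kif23, chr11:102925116-102925194 (minus strand) for Kif18b, chr1:93101875-93101944 (minus strand) for 1 of the 2 windows of Kif1a and chr2:49619216-49619285 (plus strand) for Kif5c.
Kif22: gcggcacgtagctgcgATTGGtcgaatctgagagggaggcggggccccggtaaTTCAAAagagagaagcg
Kif11: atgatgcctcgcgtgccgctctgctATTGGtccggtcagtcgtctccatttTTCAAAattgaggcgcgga
Kif15: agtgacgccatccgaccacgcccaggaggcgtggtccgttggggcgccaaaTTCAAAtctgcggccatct
Kif23: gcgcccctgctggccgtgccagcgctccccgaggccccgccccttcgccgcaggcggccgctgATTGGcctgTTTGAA
Kif18b: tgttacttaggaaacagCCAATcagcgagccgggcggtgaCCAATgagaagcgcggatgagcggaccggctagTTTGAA
Kif1a: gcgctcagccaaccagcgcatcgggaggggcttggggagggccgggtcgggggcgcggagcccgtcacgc
Kif5c: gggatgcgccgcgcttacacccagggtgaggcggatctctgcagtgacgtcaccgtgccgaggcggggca

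In Kif22, the member that was called, a CHR element began 17 bases before the start with a CCAAT box 54 bases before it, and a second pair lay further upstream, at 215 and 233 bases. In Kif11 and Kif15 the CHR element began 19 bases before the start, and in Kif23 and Kif18b on base 3 and base 4 of the transcript. Kif24 and Kif18a were the 2 division kinesins whose windows held no CHR letters. Their log2 fold changes, 0.71 and 0.97, lay within the range of the other division kinesins.

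**Figure D4:**
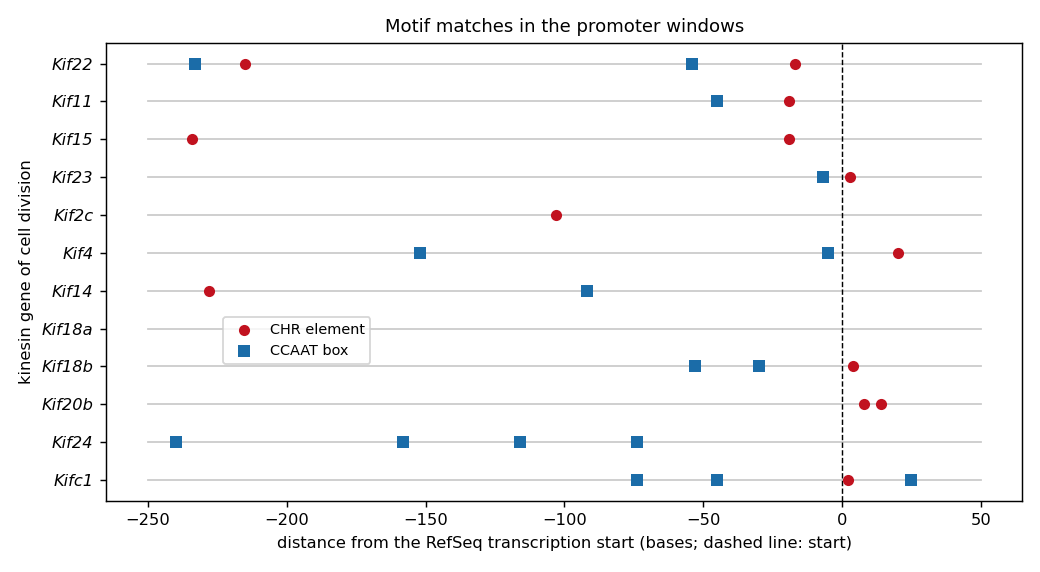
First base of each CHR element (red circles) and CCAAT box (blue squares) in the promoter windows of 12 division kinesins, as distance in bases from the RefSeq transcription start (dashed line). For 8 of the 12 genes a CHR element lies within 30 bases of the start.

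Axonal transport motors had small differences, and 0 of the 36 tested was called by edgeR or by DESeq2. By sign, 8 had a positive and 28 a negative log2 fold change, with a median of -0.13 beside -0.0033 for all genes. At an unadjusted edgeR p under 0.05, 1 was higher (2.78%, beside 8.10% of all genes) and 0 lower (beside 3.27%). The negative median rested on 1 library. In vincristine replicate 1, 29 of 36 were below the vehicle mean, 19 of them by over 0.5 on the log2 scale, and the median was -0.59. In vincristine replicates 2 and 3 the medians were -0.0044 and 0.078, 19 and 13 of 36 were below the vehicle mean, and 0 by over 0.5. Without vincristine replicate 1 the median log2 fold change was 0.017. The 24 pan-neuronal markers had medians of -1.27, -0.091 and 0.070 in the 3 vincristine libraries, and without replicate 1 a median log2 fold change of -0.0060; their part in the motor levels was not tested.

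The kinesin-1 heavy chains, Kif5a, Kif5b and Kif5c, which pull membranous organelles and neurofilaments down the axon, were among the most abundant motors. Kif5a, the neuron-specific chain, was at 655, 1036 and 941 CPM in vehicle and 437, 780 and 967 CPM in vincristine (log2 fold change -0.27 ± 0.32, edgeR adjusted p = 0.780). Kif5c was at 649, 894 and 810 CPM in vehicle and 456, 747 and 860 CPM in vincristine (-0.19 ± 0.27, adjusted p = 0.819). The groups of both overlapped, with vincristine replicate 1 lowest, and without it the log2 fold changes were -0.0068 and 0.036. Kif5b, the chain found in most cell types, was at 828, 884 and 799 CPM in vehicle and 620, 732 and 739 CPM in vincristine. All 3 vincristine libraries of Kif5b lay below all 3 vehicle libraries, but the log2 fold change of -0.26 ± 0.16 did not pass the test (edgeR adjusted p = 0.581). Per exon length, the 3 chains made up 36.6%, 31.2% and 32.2% of the summed kinesin-1 heavy chain level in vehicle and 35.4%, 31.4% and 33.2% in vincristine, with overlapping groups for each.

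Of the light chains, Klc1 was at 890, 1077 and 987 CPM in vehicle and 502, 1003 and 1125 CPM in vincristine (log2 fold change -0.17 ± 0.30, edgeR adjusted p = 0.867). Klc2 was at 139, 186 and 173 CPM in vehicle and 80.0, 157 and 174 CPM in vincristine (-0.28 ± 0.28, adjusted p = 0.743). In both genes only vincristine replicate 1 lay outside the vehicle range on the low side, by about 1 on the log2 scale from the vehicle mean (-0.97 and -1.04), and without it the log2 fold changes were 0.11 and -0.0061. Klc4 was at 28.7 to 32.6 CPM in vehicle and 24.7 to 30.1 CPM in vincristine, and Klc3 had 17 to 32 reads per library.

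Kif1a and Kif1b, kinesin-3 motors that carry synaptic vesicle precursors and mitochondria, had log2 fold changes of -0.13 ± 0.28 and -0.13 ± 0.30 (edgeR adjusted p = 0.885 and 0.899). Kif1a was at 868, 1269 and 1119 CPM in vehicle and 646, 1076 and 1245 CPM in vincristine. Kif1b was at 982, 1433 and 1398 CPM in vehicle and 751, 1227 and 1515 CPM in vincristine. For both, the vincristine libraries spread around the vehicle range, from below it in replicate 1 to within or above it. With replicate 1 left out the log2 fold changes were 0.096 and 0.11. Kif1c, Kif13a and Kif13b, kinesin-3 members that many cell types express, had log2 fold changes of 0.12, 0.02 and 0.13. In vincristine replicate 1 these 3 were at 0.35, 0.02 and 0.26 above the vehicle mean on the log2 scale, unlike Kif1a and Kif1b. Broad expression did not go with this sign throughout. Kif5b and Dync1i2, which most cell types express, were at -0.43 and -0.81 there, and the transport kinesin Kif16b was at -0.35.

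Kif3a, Kif3b and Kif3c, the kinesin-2 heavy chains, which pair as Kif3a with Kif3b or Kif3c, had log2 fold changes of -0.26 ± 0.23, -0.09 ± 0.17 and -0.04 ± 0.27 (edgeR adjusted p = 0.707, 0.871 and 0.969). Kif3a was at 113, 148 and 142 CPM in vehicle and 76.7, 119 and 141 CPM in vincristine. Kif3b was at 93.2, 104 and 104 CPM in vehicle and 72.6, 99.1 and 111 CPM in vincristine, and Kif3c at 225, 296 and 284 CPM in vehicle and 161, 284 and 337 CPM in vincristine. The groups of all 3 overlapped. Their log2 fold changes were -0.049, 0.066 and 0.21 without vincristine replicate 1.

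Kif21b, a kinesin that moves along and regulates growing microtubules in neurons and lymphocytes, was the one transport motor with vincristine libraries wholly above vehicle. It was at 25.7, 21.8 and 27.7 CPM in vehicle and 49.9, 33.4 and 33.1 CPM in vincristine (log2 fold change 0.63 ± 0.19, unadjusted p = 0.0124, edgeR adjusted p = 0.279, DESeq2 adjusted p = 0.115). Vincristine replicate 1 was the highest, as for the division kinesins. Without it the log2 fold change was 0.41 ± 0.12 (edgeR adjusted p = 0.170). Its relative Kif21a, the more abundant of the pair per length (131 against 2.06 RPKM in vehicle), was at 687, 967 and 884 CPM in vehicle and 350, 778 and 934 CPM in vincristine, with overlapping groups (log2 fold change -0.30, and 0.017 without vincristine replicate 1).

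**Figure D5:**
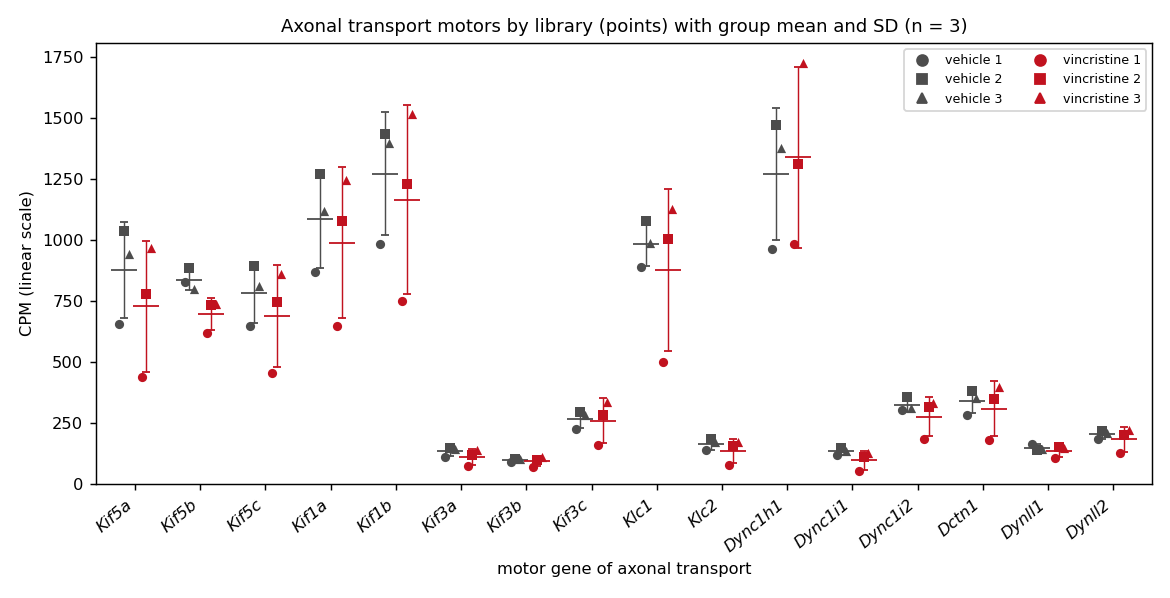
Level in CPM (linear axis from 0) of 16 axonal transport motors in each library, with vehicle in grey and vincristine in red, 1 symbol per library, and the group mean with SD (n = 3) as lines. Vincristine replicate 1 (red circle) is the lowest library for every gene shown except Dync1h1, while vincristine replicates 2 and 3 lie near or within the vehicle range for most.

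The dynein 1 chains, the return motor of the axon, were not called in either direction. Dync1h1, the heavy chain, was at 964, 1469 and 1377 CPM in vehicle and 984, 1309 and 1724 CPM in vincristine (log2 fold change 0.08 ± 0.27, edgeR adjusted p = 0.941), and was the one dynein 1 chain with a positive value. Dync1i1, the intermediate chain that is mostly neuronal, was at 119, 150 and 134 CPM in vehicle and 54.3, 112 and 129 CPM in vincristine (-0.44 ± 0.30, adjusted p = 0.622). Dync1i2, the intermediate chain of most cells, was at 305, 356 and 313 CPM in vehicle and 184, 315 and 332 CPM in vincristine (-0.23 ± 0.23, adjusted p = 0.742). Dync1i1 had the most negative difference of the 36 transport motors in vincristine replicate 1, -1.29 on the log2 scale. Without that library the log2 fold changes were 0.26 for Dync1h1, -0.15 for Dync1i1 and -0.0049 for Dync1i2. Dync1li1 and Dync1li2, the light intermediate chains that bind cargo adaptors, had log2 fold changes of -0.22 and -0.09.

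Among dynein light chains, Dynlt3 was at 443, 422 and 389 CPM in vehicle and 254, 347 and 363 CPM in vincristine. Its vincristine libraries lay wholly below the vehicle libraries, and the log2 fold change of -0.38 ± 0.18 did not pass the test (edgeR adjusted p = 0.477, DESeq2 adjusted p = 0.269). It was -0.24 ± 0.11 without vincristine replicate 1. Dynll1 and Dynll2, the LC8 light chains that also serve many proteins outside dynein, had log2 fold changes of -0.13 ± 0.16 and -0.15 ± 0.22 (edgeR adjusted p = 0.777 and 0.821). Dynll1 was at 166, 141 and 143 CPM in vehicle and 109, 152 and 149 CPM in vincristine, and Dynll2 at 184, 219 and 212 CPM in vehicle and 127, 203 and 222 CPM in vincristine, and without vincristine replicate 1 the log2 fold changes were 0.0024 and 0.055. Dynlt1a, Dynlt1b, Dynlt1c, Dynlt1f and the pseudogene Dynlt1-ps1 are near-identical copies, so their counts of uniquely placed reads are uncertain. Dynlt1a and Dynlt1f, the 2 functional copies that were tested, had 10 to 37 reads per library.

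Dynactin links dynein to cargo and keeps it on the microtubule. All 6 genes from Dctn1 to Dctn6 had negative log2 fold changes, from -0.29 to -0.08 with a median of -0.13, and 0 was called or had an unadjusted p under 0.05. Dctn1, the large subunit that binds both dynein and microtubules, was at 285, 380 and 355 CPM in vehicle and 183, 347 and 397 CPM in vincristine (-0.14 ± 0.29, edgeR adjusted p = 0.887). Dctn3 was at 104, 107 and 97.5 CPM in vehicle and 61.1, 97.8 and 93.0 CPM in vincristine (-0.29 ± 0.18, adjusted p = 0.596). These values were 0.13 for Dctn1 and -0.11 for Dctn3 without vincristine replicate 1. The 6 genes summed to 1054, 1209 and 1096 CPM in vehicle and 691, 1129 and 1231 CPM in vincristine. Without vincristine replicate 1 their median log2 fold change was 0.053, so that their common sign also rested on that library. Further dynactin subunits are among the adaptors and regulators below: Actr1a, Actr1b, Actr10 and Capza2 had log2 fold changes of -0.09, -0.22, -0.29 and -0.07, and Capza1 and Capzb 0.16 and 0.09, with 0 called.

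The remaining members act in cilia, in microtubule ends or in roles less well described. The dynein 2 chains Dync2h1 and Dync2li1, the return motor of cilia, had log2 fold changes of -0.15 and -0.11. Of the 10 other kinesins, 5 had a positive and 5 a negative log2 fold change, and 0 was called by either tool. Kifc2, a kinesin with its motor at the carboxy end that is found in neurons, had the smallest unadjusted p among lower members (0.0217). It was at 22.7, 27.1 and 27.7 CPM in vehicle and 16.8, 21.6 and 20.2 CPM in vincristine, groups that did not overlap (log2 fold change -0.40 ± 0.14, edgeR adjusted p = 0.341). Without vincristine replicate 1 the value was -0.31 ± 0.12. Kif26a was at 9.35, 11.05 and 11.3 CPM in vehicle and 8.21, 9.24 and 8.40 CPM in vincristine (-0.29 ± 0.14, adjusted p = 0.492), also without overlap. Kif27, at 9 to 24 reads per library, had a log2 fold change of -0.45 ± 0.25 (adjusted p = 0.554).

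The adaptors and regulators that tie motors to cargo, or switch them on, had no common direction past the test. Of 50 such genes with reads, 49 were tested (Ccdc64b was not): 15 had a positive and 34 a negative log2 fold change, with a median of -0.078, and edgeR called 0. Their medians by vincristine library, as log2 difference from the vehicle mean, were -0.42, -0.012 and 0.054, replicate 1 first. The median log2 fold change was 0.032 without replicate 1. An unadjusted edgeR p under 0.05 was reached by 1 in the higher direction (2.04%, beside 8.10% of all genes) and 0 in the lower (beside 3.27%). That gene was Trak2, which couples mitochondria to kinesin and dynein. It was at 203, 189 and 192 CPM in vehicle and 379, 271 and 278 CPM in vincristine, wholly above vehicle (log2 fold change 0.67 ± 0.17, edgeR adjusted p = 0.198, DESeq2 adjusted p = 0.0112). Trak2 was the 1 adaptor of 49 that DESeq2 called, beside 3.41% of all genes. Without vincristine replicate 1 its value was 0.50 ± 0.09 and edgeR called it (adjusted p = 0.0405). It was then the 1 adaptor of 49 called, beside 336 of all 16706 genes tested. Neither count is read as a result about the adaptors. Fez1, a kinesin-1 adaptor of axon growth, was at 432, 457 and 391 CPM in vehicle and 164, 319 and 341 CPM in vincristine (-0.63 ± 0.27, edgeR adjusted p = 0.448), without overlap. Its value without vincristine replicate 1 was -0.37 ± 0.11 (edgeR adjusted p = 0.205). Fez1 was then the 1 lower adaptor of 49 at an unadjusted edgeR p under 0.05 (2.04%, beside 4.21% of all genes). That count is likewise not read as a result about the adaptors. Next in order of p were Spdl1 (log2 fold change 0.74 ± 0.32) and Capza1 (0.16 ± 0.10) on the higher side and Actr10 (-0.29 ± 0.14) and Hook1 (-0.34 ± 0.17) on the lower side, with edgeR adjusted p of 0.455, 0.612, 0.502 and 0.515.

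Some members share sequence with a neighbouring gene. By GENCODE M21, exons of 20 of the 65 overlap exons on the opposite strand and those of 3 overlap exons on the same strand, and no source used here says whether the counting used the strand. Kif22 overlaps Gm31749, Kif20a overlaps Cdc23, Kif4 overlaps Pdzd11, Kif18a overlaps Mettl15 and Kifc2 overlaps Cyhr1. Where the counting did not use the strand, reads from the shared exons of such pairs cannot be assigned to one gene. Gm31749 is not among the gene symbols counted, so reads from its shared exons could then have been counted as Kif22. Whether this happened was not tested.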

How the data were processed

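Per the labels' protocols, RNA of pooled ganglia was column-extracted and made into stranded total RNA libraries, read as single ends of 75 nucleotides. Each sample has 1 deposited table of raw read counts by gene symbol, which the authors did not normalize. STAR, SAMtools and HTSeq with mm10 (GRCm38) were used, per the submitters' processing notes; no source used here gives versions, annotation or strand setting. Summary lines of the counter (not unique 31.1% to 40.5% of tallied alignments, no feature 14.8% to 24.8% with the highest share in vincristine replicate 1, ambiguous 0.253% to 0.331%) were kept out.

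The test was that of edgeR 4.0.16 under R 4.3.3 (filterByExpr with minimum count 10, 16706 genes; TMM; robust quasi-likelihood F test, two-sided; Benjamini-Hochberg over all genes tested, threshold 0.05), with treatment as the one term and 4 residual degrees of freedom. Variation between pools of a group (common BCV) was 0.193. SEs of log2 fold changes were obtained as |log2 fold change| over the root of F. RPKM divides CPM by the summed length of all exons of a gene in GENCODE M21, each base counted once. This length can exceed that of the transcript expressed. Replicate pairs differed far beyond sampling noise, so no library was counted as a copy of another. DESeq2 1.42.0, limma 3.58.1 with quality weights, other scaling, another filter, a replicate block and leaving out each library were alternatives; leaving out vincristine replicate 1 in DESeq2 was chosen after seeing the data. Both count tests were tested on simulated data.

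Members, roles and gene lists were chosen with earlier results of these data known. Of 194 list entries 2 were found by an older symbol and 3 were unmatched (Ahsp, Dnai1 and Cfap126). Named with values are 16 transport motors and the 7 mitotic motors whatever their values, members called by edgeR or DESeq2, the 6 smallest p in each direction, untested members, and the 3 smallest p in each direction among adaptors and regulators. Other genes named were chosen after their values were seen. Motile cilia markers (10 genes found) had summed levels of 31.1 to 34.2 CPM in vehicle and 29.3 to 34.4 CPM in vincristine.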

Additional observations from a re-analysis of the deposited data

How the results depend on the processing

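Depth limits the low genes most, since division kinesins rest on 36 to 828 reads per library, and the 4 residual degrees of freedom limit every call. The count of motor genes called higher, 1 by edgeR, was 2 by DESeq2 with all libraries and without vincristine replicate 1, 0 with RLE scaling, and 0 to 1 when a library was left out. The 12 members higher at an unadjusted p under 0.05 became 4 to 13 when a library was left out (5 without vehicle replicate 1 and 4 without vehicle replicate 2). The 1 lower member became 3 by DESeq2 with all libraries and without vincristine replicate 1, 4 by limma with quality weights and 0 to 3 when a library was left out (0 without vehicle replicate 2 or 3, 2 without vehicle replicate 1 or vincristine replicate 1, 3 without vincristine replicate 3). The 60 genes called in all became 569 by DESeq2, 629 by DESeq2 without vincristine replicate 1, 474 by limma with quality weights, and 0 to 336 when a library was left out (0 without any 1 vehicle library, 336, 6 and 18 without vincristine replicates 1, 2 and 3). No motor gene was called lower in any of these alternatives. Kif22 kept its direction in all of them, with log2 fold changes of 1.31 to 1.67.

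The replicate numbers are shared by the groups, but no source used here says that they pair the samples. Correlations of same-numbered libraries' deviations were 0.47, 0.28 and -0.085. Vehicle replicate 1 correlated best with vincristine replicate 1, and vehicle replicate 2 with vincristine replicate 3 (0.55). Each deviation was taken from the mean of its own small group, so these values cannot show whether the samples were paired. With the number as a replicate block, edgeR called 261 genes in place of 60, 1 motor gene higher (Kif22, adjusted p = 0.0144) and 0 lower, and 3 members were lower at an unadjusted p under 0.05.

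The median log2 fold change of axonal transport motors was -0.27 to 0.017 when a library was left out, and 0.0082 by DESeq2 without vincristine replicate 1. Single transport motors with small log2 fold changes also turned sign. When a library was left out, Kif1a ranged from -0.34 to 0.096, Kif1b from -0.36 to 0.11, Kif3b from -0.23 to 0.066, Kif3c from -0.27 to 0.21, Kif5c from -0.38 to 0.036, Klc1 from -0.39 to 0.11, Dctn1 from -0.36 to 0.13, Dynll1 from -0.21 to 0.0024, Dynll2 from -0.31 to 0.055 and Dync1h1 from -0.15 to 0.26. By DESeq2 without vincristine replicate 1 the values were 0.086 for Kif1a, 0.10 for Kif1b, 0.057 for Kif3b, 0.20 for Kif3c, 0.026 for Kif5c, 0.10 for Klc1, 0.12 for Dctn1 and 0.046 for Dynll2. By limma with quality weights they were 0.066 for Kif3c and 0.012 for Dynll1. None of these genes passed the threshold in any alternative. The cause of these changes was not tested.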

Other observations

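The patterns here were picked after the values had been seen and are given as values only. Kif22 stood higher than the other division kinesins in the vincristine libraries other than replicate 1. Its log2 difference from the vehicle mean, minus the median of the other 12 division kinesins, was 0.033, 0.11 and -0.15 in vehicle and 0.13, 0.58 and 0.85 in vincristine replicates 1, 2 and 3. In vincristine replicate 1 it was close to the other division kinesins, all of which were highest there.

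Within families, shares per exon length were computed for 14 genes of 5 families, and for 3 of them the groups did not overlap. By level, 11.5% of all genes tested were wholly higher in vincristine and 9.51% wholly lower. The count of 3 is therefore not read as a result about these families. Kif3a made up 40.1%, 41.4% and 41.1% of the summed kinesin-2 heavy chain level in vehicle and 38.2%, 37.2% and 37.6% in vincristine, so that the shift was in all 3 vincristine libraries and not in replicate 1 alone. Dync1i1 made up 47.4%, 49.3% and 49.8% of the summed dynein intermediate chain level in vehicle and 40.5%, 45.2% and 47.4% in vincristine. The nearest libraries of the groups were almost equal, and Dync1i2 is its complement. The size of such shares depends on the exon lengths used. Not divided by length, the vehicle means were 134 CPM for Dync1i1 and 325 CPM for Dync1i2. With 3 pools against 3 an exact two-sided permutation test cannot go below p = 0.1, so neither share can pass 0.05.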
